A study of Mus musculus with 8 samples.

Results

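Histone genes were examined in RNA-seq of Th17 cells, the IL-17-producing helper T cells, with and without Trim28. Members were taken by symbol: names starting with Hist1h, Hist2h, Hist3h or Hist4h (replication-dependent genes) or with H2af, H3f3 or H1f (variant genes). Of 13704 genes with reads in at least 1 library, 56 met this rule, 46 of them replication-dependent and 10 variant. By subclass the replication-dependent members were 5 H1, 10 H2A, 11 H2B, 9 H3 and 11 H4 genes.

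Naive CD4+ T cells of C57BL/6 mice that were wild type (WT) or carried floxed Trim28 alleles deleted by Cre under the Cd4 promoter (Trim28-/-, here KO) were kept for 3 days in medium with IL-6 at 20 ng/ml and TGF-β at 0.5 ng/ml, and were stimulated again through CD3 before RNA was taken. The Cd4 promoter is active from thymocyte stages on, so the deletion preceded the culture. Each genotype had 1 library, of 6650066 reads for WT and 6185108 reads for KO, and no difference below has a replicate check. The age of the mice and any pooling of animals are not given in the sources used here. Trim28 itself fell from 4485 WT reads to 180 KO reads (log2 fold change −4.53). All 10 T cell and Th17 markers examined had reads in both libraries, among them Cd4 with 7904 and 6598. The 14 markers of other cell types summed to 96 reads in WT and 44 in KO (14.4 and 7.11 CPM, that is, per 1000000 counted reads), and 7 of them had no read in either library, including Lyz2, Csf1r and Ncr1.

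Histones are the proteins around which DNA is wound: H2A, H2B, H3 and H4 build the nucleosome core and H1 binds the linker between nucleosomes. Replication-dependent histone genes sit in clusters, lack introns and are read mostly in S phase, when new DNA must be packaged. Their mRNAs end not in a poly(A) tail but just after a short stem-loop bound by the protein Slbp, and they are lost rapidly when DNA synthesis stops. Variant histones, such as H2A.Z and H3.3, are made throughout the cell cycle from polyadenylated mRNAs and replace the canonical proteins at particular places in chromatin. In the library preparation only mRNA was kept, and how it was selected is not given in the sources used here. If the selection was through the poly(A) tail, replication-dependent transcripts are seen only as far as they carry one.

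The stem-loop sets the classes apart in the reference sequence and is shown for H2afx and for 5 called replication-dependent genes of the H2A, H2B, H3 and H4 subclasses, called in both directions. It was searched for on the sense strand of GRCm38, in the 100 bases after the stop codon, as an arm of 6 bases that starts with GG and ends with T, a loop of 4 bases with T as the third, and the arm complementary to the first. It was found in 45 of 46 replication-dependent members, all but Hist2h2be, in 1 of 10 variant members, H2afx, and in 71 of 21726 protein-coding genes overall (0.327%). Capitals mark the 16 bases of the stem-loop. From 5′ to 3′ they read as follows, with 5 flanking bases on either side.
Hist1h2ao: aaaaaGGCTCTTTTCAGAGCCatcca
Hist1h2bg: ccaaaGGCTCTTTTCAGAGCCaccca
Hist1h3c: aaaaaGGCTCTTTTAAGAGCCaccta
Hist2h3c1: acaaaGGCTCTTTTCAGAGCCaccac
Hist4h4: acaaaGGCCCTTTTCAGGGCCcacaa
H2afx: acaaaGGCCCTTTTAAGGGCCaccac

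The capitals lie at chr13:21810898-21810913 (plus strand) for Hist1h2ao, chr13:23571843-23571858 (plus) for Hist1h2bg, chr13:23745047-23745062 (minus) for Hist1h3c, chr3:96247327-96247342 (plus) for Hist2h3c1, chr6:136803998-136804013 (minus) for Hist4h4 and chr9:44335240-44335255 (plus) for H2afx. The same 16 letters as in Hist1h2ao were shared by 27 replication-dependent members from the H1, H2A, H2B and H3 subclasses. The form in Hist4h4 was found in 6 members, all of them H4 genes. Members with identical letters were called in opposite directions, Hist1h2ao higher and Hist2h3c1 lower in the KO library. The call of Hist2h3c1 rests on 19 reads in WT and 6 in KO. Neither count can be given to its gene alone. Of the transcript's windows of 50 bases, 6.50% in Hist1h2ao and 0% in Hist2h3c1 were found in no other annotated gene.

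Histone reads took a larger share of the KO library than of the WT library in both classes. The 46 replication-dependent genes summed to 916 reads in WT and 1896 in KO, or 0.0138% and 0.0307% of all reads, a ratio of 2.23 (exact 95% interval 2.06 to 2.41, counting error only). The 10 variant genes summed to 13527 reads in WT and 19945 in KO, 0.203% and 0.323%, a ratio of 1.59 (1.55 to 1.62). These sums include members with few reads and so do not depend on a filter. The variant genes held 93.7% of the histone reads in WT and 91.3% in KO. A single H2A gene, Hist1h2ao, held 52.3% of the replication-dependent reads in WT and 64.3% in KO. Without it, the replication-dependent sum went from 437 to 676 reads, a ratio of 1.66 (1.47 to 1.88), whose interval contains the variant ratio. In RNA from a bulk culture, more cells that express these genes and more histone mRNA per cell cannot be told apart.

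**Figure D1:**
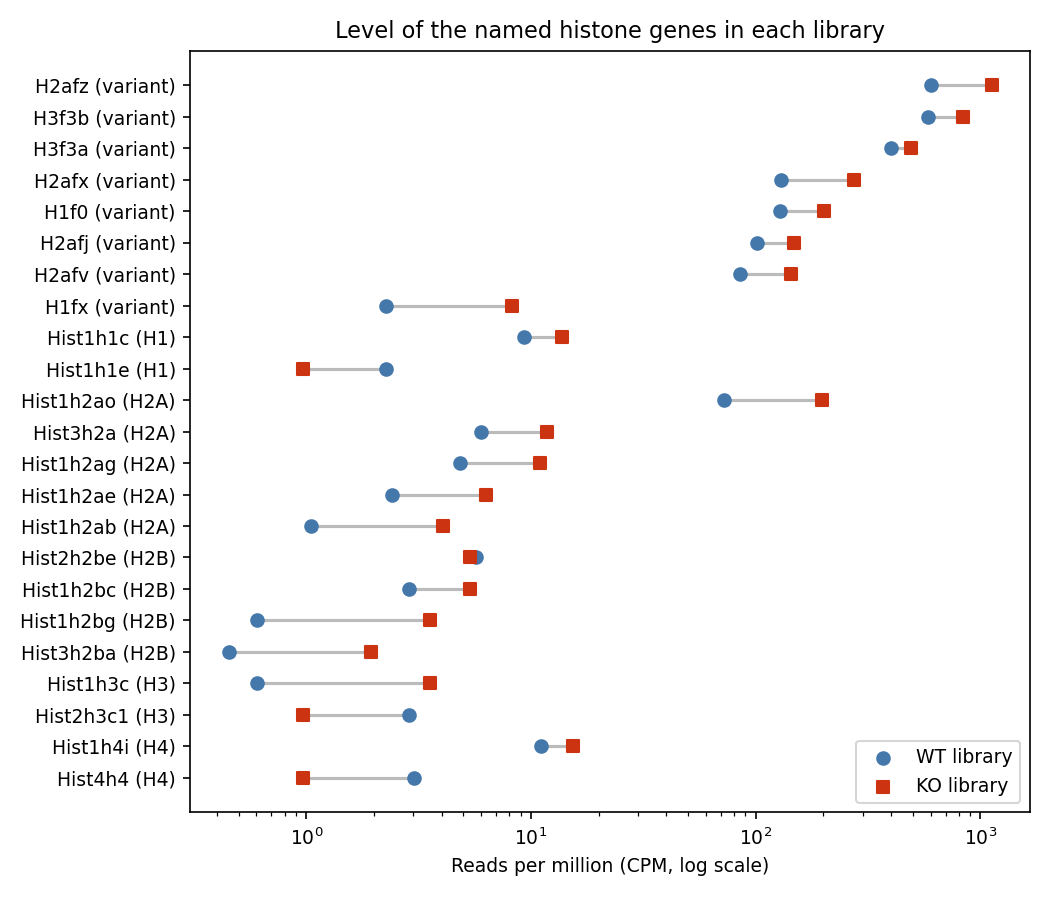
Level of each named histone gene in the WT library (circles) and the KO library (squares), in CPM on a log axis, grouped as variant, H1, H2A, H2B, H3 and H4. The KO square lies to the right of the WT circle for all 8 variant genes and all 5 H2A genes, and to the left for Hist1h1e, Hist2h2be, Hist2h3c1 and Hist4h4.

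Tests were run over the 10881 genes whose reads in WT and KO together came to 10 or more, with 0.5 added to each count for the log2 fold change (KO over WT). Each gene had a two-sided exact binomial test, p-values were adjusted by Benjamini-Hochberg, and genes that passed 0.05 after adjustment and also differed 2-fold or more were called. It sets 1 library against the other and says nothing of variation within a genotype. Of all tested genes 280 were called higher in KO (2.57%) and 602 lower (5.53%), and the median log2 fold change was −0.02. Of the 56 histone genes 32 were tested, 9 were called higher and 2 lower, and their median log2 fold change was 0.89. The other 24 had too few reads. The log2 fold change was above 0 for 28 of the 32, and the exact 95% interval lay wholly above 0 for 21 and wholly below 0 for 2. A gene with few WT reads could pass the minimum through the KO library alone, so these counts describe the tested members only. With 10 reads required in each library, 16 were tested, 5 called higher and 0 lower, where 1.95% of all genes were called higher and 4.12% lower. With a coefficient of variation of 0.2 assumed between replicates in edgeR's exact test, only Hist1h2ao was called, where 0.597% of all genes were called higher.

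Short transcripts stood higher in the KO library among all genes, and most histone transcripts are short. In the 1079 tested genes with the shortest annotated transcripts (median 1044 bases) the median log2 fold change was 0.29, and in the 1079 with the longest (median 8107 bases) it was −0.44. Among the 229 other tested genes with a transcript under 800 bases, a limit chosen after the values were seen, the median was 0.33, 170 were above 0, 8 were called higher and 5 lower. The 14 histone genes of that length had a median of 1.28, all 14 were above 0 and 7 were called higher. Of these 14 only Hist1h2ao, Hist1h2ag, Hist1h2ae and Hist1h4i had 10 or more reads in WT. The others needed KO reads to reach the minimum of 10, so these counts describe the tested members only. After a loess curve against transcript length was taken off, the median of the 32 tested histone genes was 0.67, with 6 called higher and 2 lower, where 2.47% of all genes were called higher and 4.28% lower. Both values are given below for named genes whose call changes.

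**Figure D2:**
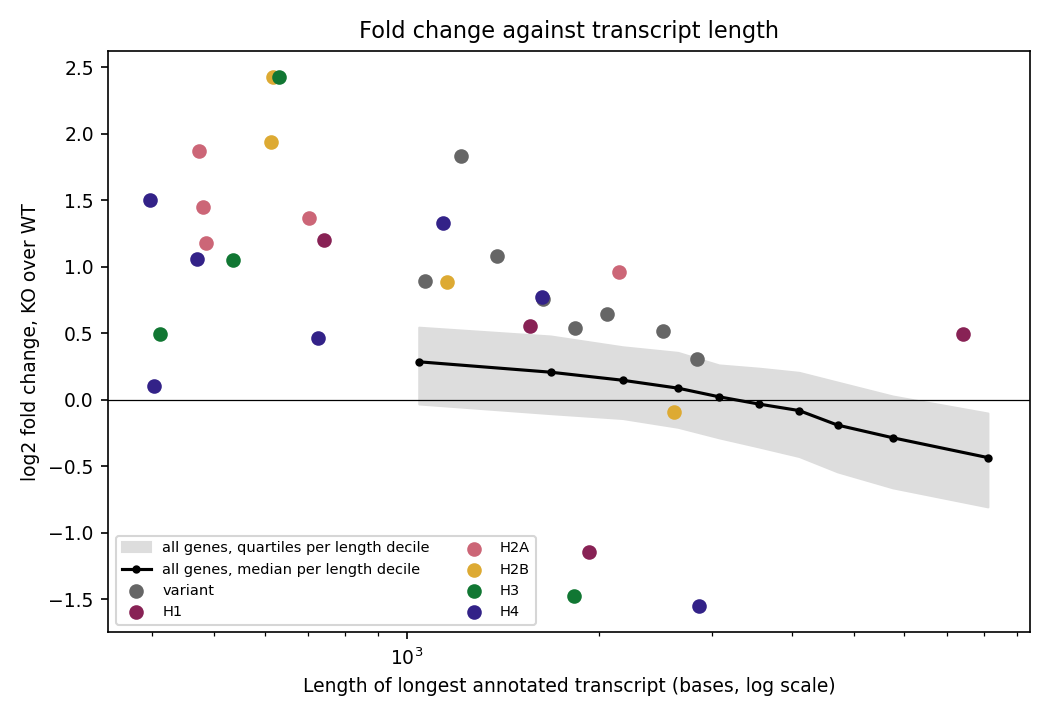
Log2 fold change (KO over WT) of the 32 tested histone genes, coloured by class, against the length of the longest annotated transcript in bases on a log axis. The black line and the grey band give the median and the quartiles of all tested genes in 10 bins of length. The line falls from 0.29 to −0.44, and the tested histone genes under 800 bases all lie above 0. Most of these short histone genes had under 10 reads in WT.

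**Figure D3:**
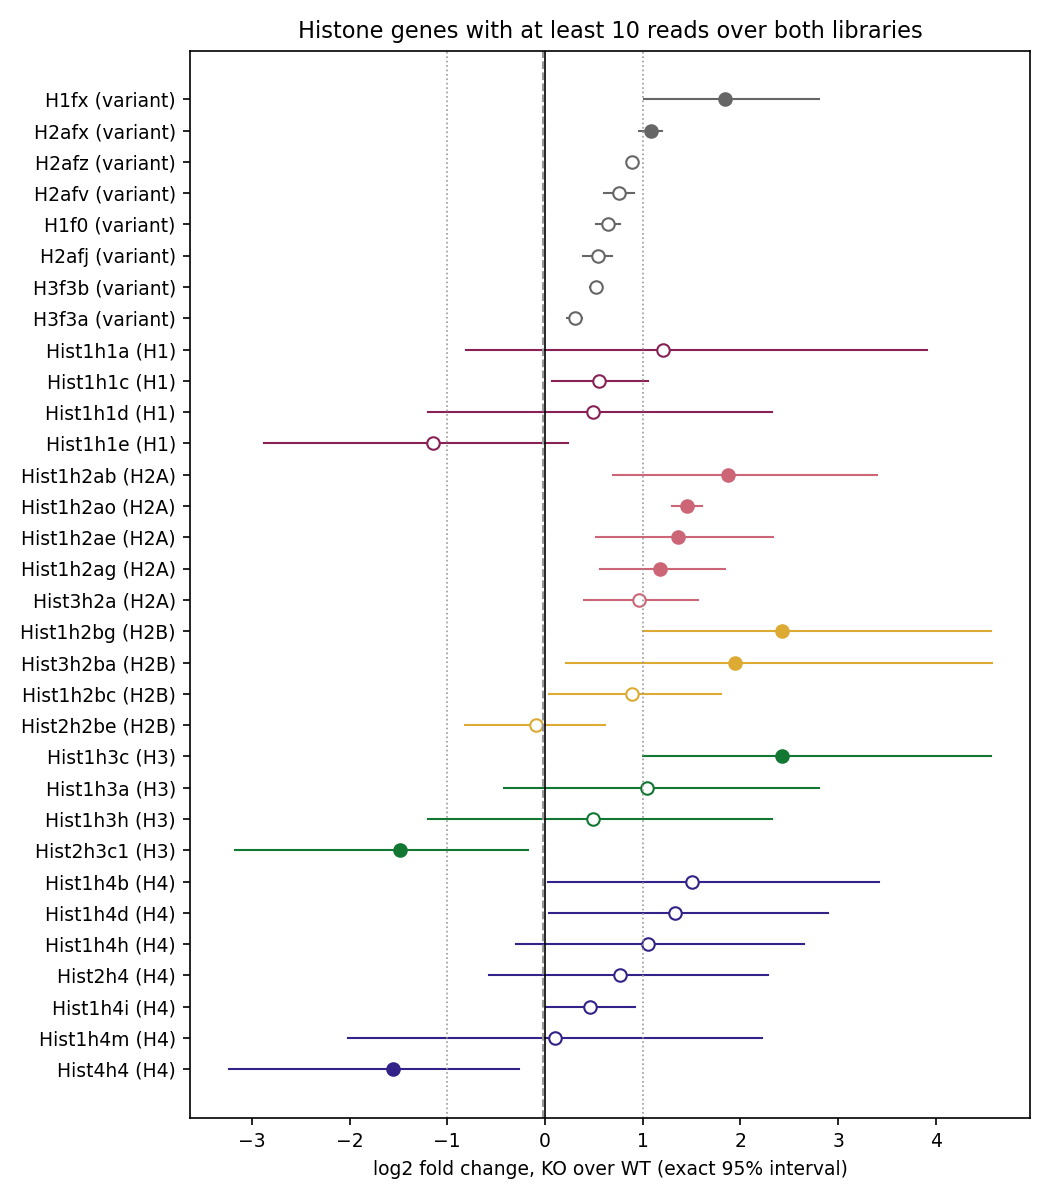
Log2 fold change (KO over WT) with its exact 95% interval for each tested histone gene; filled points were called, dotted lines mark 2-fold and the dashed line is the median of all genes. The 9 filled points on the right are H1fx, H2afx, 4 H2A, 2 H2B and 1 H3 gene, and the 2 on the left are Hist2h3c1 and Hist4h4.

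Among the variant genes, 8 were tested, all 8 had an interval above 0, and 2 were called higher, where 2.57% of all genes were. After the length correction 1 was called higher, where 2.47% of all genes were. H2afz, which encodes H2A.Z, the variant found at promoters around transcription start sites, had the most reads of all members, 4023 in WT and 6939 in KO, and a log2 fold change of 0.89 (0.83 to 0.95). H2afv, which encodes the closely related H2A.Z.2, had 565 and 889 reads, with a log2 fold change of 0.76 (0.60 to 0.91). Neither reached 2-fold. The longest open reading frames of H2afz and H2afv, read from the annotated transcripts, matched at 79.1% of bases and differed at 3 of 128 residues. Of the 50-base windows of the H2afz transcript 66.8% were found in no other annotated gene, and the rest were shared with genes such as Gm8203, while all windows of H2afv were its own.

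H2afx, which encodes H2A.X, the H2A whose phosphorylation marks DNA breaks, had 858 reads in WT and 1689 in KO, a log2 fold change of 1.08 (0.96 to 1.20), and was called higher. After the length correction its value was 0.86, below 2-fold. Its gene (chr9:44334694-44336077, 1 exon) carries the stem-loop, and its annotated transcript runs on for 822 bases past it and has a poly(A) signal.

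H3.3 is the H3 that is put into chromatin outside replication, and it comes from H3f3a and H3f3b, whose proteins are identical (0 of 136 residues differed) while their coding bases matched at 76.9%. H3f3b had 3875 reads in WT and 5168 in KO, a log2 fold change of 0.52 (0.46 to 0.58). H3f3a had 2649 and 3042 reads, 0.30 (0.23 to 0.38), the lowest of the tested variant genes. Summed, the H3.3 genes went from 6524 to 8210 reads, a ratio of 1.35 (1.31 to 1.40), against 1.83 (1.77 to 1.90) for the summed H2A.Z genes, from 4588 to 7828 reads. These intervals did not overlap. They cover counting error only and the sums are not corrected for length. After the length correction the log2 fold changes were 0.63 for H2afz and 0.56 for H2afv, against 0.42 for H3f3b and 0.25 for H3f3a.

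The linker variants differed widely in level. H1f0, which encodes H1.0, a linker histone known from resting and differentiated cells, had 856 reads in WT and 1245 in KO, a log2 fold change of 0.64 (0.52 to 0.77). H1fx, which encodes H1X, had 15 and 51 reads, 1.84 (1.02 to 2.81), and was called higher with and without the length correction. H2afj, which encodes the H2A variant H2A.J, had 677 and 914 reads, 0.54 (0.39 to 0.68). Of these genes H1fx had by far the fewest reads.

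Per length, H2afz stood at 566 RPKM (reads per kilobase of the longest annotated transcript and 1000000 reads) in WT, followed by H3f3b at 232, H3f3a at 140, H2afx at 93.2, H1f0 at 62.6, H2afj at 55.6, H2afv at 52.0 and H1fx at 1.85. In KO the order began with H2afz at 1049 and H3f3b at 332 RPKM, then H2afx at 197, above H3f3a at 173. H1f0 at 98.0, H2afv at 88.0 and H2afj at 80.7 came next, and H1fx at 6.78 was again the lowest. The Poisson intervals of H2afj and H2afv overlapped in both libraries, those of H1f0 and H2afj in WT and those of H1f0 and H2afv in KO, so these neighbours were not separated by their reads.

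The macroH2A genes gave few reads. H2afy2, which encodes macroH2A2, had 0 reads in WT and 8 in KO. H2afy3, annotated as a processed pseudogene at chr15:62218221-62219332, had 9 reads in WT and 0 in KO. Both had under 10 reads and were not tested, and 6.68% of the 50-base windows of H2afy2 occur in H2afy3. The gene of macroH2A1, H2afy, was not listed in either library.

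Of the replication-dependent genes 24 were tested, with 7 called higher and 2 lower, where 2.57% of all genes were called higher and 5.53% lower. The median log2 fold change of the 24 was 1.01. After the length correction it was 0.76, with 5 called higher and 2 lower, where 2.47% of all genes were called higher and 4.28% lower. Among the tested genes the H2A subclass was the most uniform. Its 10 genes summed to 582 reads in WT and 1435 in KO, a ratio of 2.65 (2.41 to 2.92), and all 5 tested H2A genes had intervals above 0. The untested H2A genes went both ways. Hist1h2ak had 6 reads in WT and 3 in KO, Hist1h2af and Hist2h2aa2 1 and 0, Hist1h2ac 0 and 3, and Hist2h2ac 0 and 4. Hist1h2ao (chr13:21810465-21810944, 1 exon) had 479 reads in WT and 1220 in KO, a log2 fold change of 1.45 (1.30 to 1.61), and was called higher, also after the length correction at 1.09. Its reads cannot be given to this gene alone: only 6.50% of its 50-base windows were found in no other annotated gene, and 93.5% occur in Hist1h2ap, which has the same coding sequence and was not listed in either library. The counts listed under Hist1h2ao may thus include reads of other H2A copies.

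The other H2A genes had fewer reads. Hist1h2ag had 32 reads in WT and 68 in KO, a log2 fold change of 1.18 (0.57 to 1.85), and was called higher, but not after the length correction, at 0.82. Hist1h2ae had 16 and 39 reads, 1.36 (0.52 to 2.33), and was called with and without the correction. Hist1h2ab had 7 and 25 reads, 1.87 (0.69 to 3.39), and was also called either way. Hist3h2a, which lies on chromosome 11 outside the main cluster, had 40 and 73 reads, 0.96 (0.40 to 1.57), just under 2-fold. The coding bases of Hist1h2ag, Hist1h2ae and Hist1h2ab match those of Hist1h2ao at 99.2%, 98.5% and 98.0%, and the proteins do not differ. Of their 50-base windows 21.1%, 56.8% and 42.0% were found in no other annotated gene. Reads of other H2A copies may thus be counted here too, and these genes are not independent of one another.

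The H2B genes summed to 74 reads in WT and 123 in KO, a ratio of 1.79 (1.33 to 2.42). Hist1h2bg had 4 reads in WT and 22 in KO, a log2 fold change of 2.43 (1.01 to 4.56), and was called higher with and without the correction. Hist3h2ba had 3 and 12 reads, 1.94 (0.21 to 4.57), called higher but not after the length correction, at 1.60. Hist1h2bc had 19 and 33 reads, 0.89 (0.04 to 1.80). Hist2h2be, the 1 replication-dependent member in which the search found no stem-loop, had the most reads of the H2B genes. It had 38 in WT and 33 in KO, a log2 fold change of −0.10 (−0.82 to 0.61). All of its 50-base windows are its own.

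H2A and H2B genes often lie head to head and share the sequence between them. Among the listed members 4 such pairs were found with at most 500 bases between the annotated starts. In the pair of Hist1h2ae and Hist1h2bg, 175 bases apart, both genes were called higher, as given above. In the pair of Hist1h2ag and Hist1h2bj, Hist1h2bj had 1 read in each library beside 32 and 68 for Hist1h2ag. In the pair of Hist1h2ac and Hist1h2bc the H2A gene had 0 and 3 reads, and in the pair of Hist2h2ac and Hist2h2be, on chromosome 3, it had 0 and 4.

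The sequence around the stretch between Hist1h2ae and Hist1h2bg is shown because no other such stretch lies between genes that were both called. The window printed is that of RefSeq on GRCm38.p6, from 250 bases before to 50 bases after the start of Hist1h2bg. In the annotation used for positions Hist1h2ae starts at 23571220 and Hist1h2bg at 23571396, so the window also covers the first bases of both transcripts. The window lies at chr13:23571150-23571449 on the plus strand, and capitals mark each CCAAT and TATAAA found on either strand.
Hist1h2bg promoter: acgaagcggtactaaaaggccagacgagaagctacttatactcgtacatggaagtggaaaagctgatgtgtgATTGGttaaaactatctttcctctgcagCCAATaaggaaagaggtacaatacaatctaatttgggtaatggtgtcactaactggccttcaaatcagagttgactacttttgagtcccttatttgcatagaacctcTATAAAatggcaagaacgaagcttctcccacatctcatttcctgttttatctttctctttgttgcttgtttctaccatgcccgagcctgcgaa

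Over the 300-base windows of the same table, CCAAT on either strand was found in 34 of the 41 replication-dependent members with an entry (82.9%) and in 37.9% of all 27025 promoters, and TATAAA in 22 of 41 (53.7%) against 14.2%. Of the 8 variant members with an entry 6 held CCAAT and 1 held TATAAA. A match describes the letters and is no proof that a factor binds there.

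The H3 genes summed to 42 reads in WT and 55 in KO, a ratio of 1.41 (0.93 to 2.16), and moved apart. Hist1h3c had 4 reads in WT and 22 in KO, a log2 fold change of 2.43 (1.01 to 4.56), and was called higher with and without the correction. Hist2h3c1 (chr3:96246685-96248509) had 19 and 6 reads, −1.48 (−3.17 to −0.18), and was called lower. None of its 50-base windows is its own, since Gm20634 and other H3 copies hold them all. The call was lost under TMM scaling and with a loess curve on GC content. The proteins of Hist1h3c and H3f3a, canonical and replacement H3, differed at 4 of 136 residues.

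The H4 genes summed to 132 reads in WT and 174 in KO, a ratio of 1.42 (1.12 to 1.79). Hist1h4i had the most, 74 and 95 reads, with a log2 fold change of 0.46 (0.01 to 0.92), and was not called. Hist4h4 (chr6:136801553-136804415), the only listed replication-dependent gene on chromosome 6, had 20 and 6 reads, −1.55 (−3.24 to −0.26), and was called lower with and without the length correction. Near it on the opposite strand lies the variant gene H2afj (chr6:136808244-136810074), with the values given above. Hist1h4i and Hist4h4 encode the same protein while their coding bases matched at 86.9%.

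The H1 genes summed to 86 reads in WT and 109 in KO, a ratio of 1.36 (1.02 to 1.83), and none was called. Hist1h1c had 62 and 85 reads, with a log2 fold change of 0.56 (0.07 to 1.06). Hist1h1e had 15 and 6 reads, −1.15 (−2.87 to 0.23), with an interval that holds 0.

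Of the 22 replication-dependent genes with under 10 reads, 13 had more reads in KO, 4 had equal reads and 5 had more in WT. Of all 2823 genes with so few reads, 36.5% had more in KO. Among these histone genes Hist2h2bb had 0 reads in WT and 5 in KO, and Hist2h2ac 0 and 4. Over all members, 43 had reads in both libraries, 9 in KO only and 4 in WT only, where 4.57% of all 13704 genes had reads in KO only and 6.93% in WT only. None of these 13 members reached 10 reads. A count of 0 allows a level of up to 3 reads, which is 0.451 CPM in WT and 0.485 CPM in KO.

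By cluster, counting replication-dependent genes only, the 36 on chromosome 13 summed to 784 reads in WT and 1744 in KO, a ratio of 2.39 (2.20 to 2.60), and to 305 and 524 without Hist1h2ao, 1.85 (1.60 to 2.13). The 7 replication-dependent genes on chromosome 3 summed to 69 and 61 reads, 0.95 (0.66 to 1.36). Most of these reads were listed under Hist2h2be, with 38 and 33, and Hist2h3c1, with 19 and 6. Of the others on chromosome 3, Hist2h4 had the most, with 8 and 13. The 2 on chromosome 11 went from 43 to 85 reads, 2.13 (1.46 to 3.14), and the 1 on chromosome 6 is Hist4h4. The intervals of chromosomes 13 and 3 did not overlap. The sums are not corrected for transcript length. The longest annotated transcripts of Hist2h2be and Hist2h3c1 have 2620 and 1825 bases, and that of Hist1h2ao 480. Chromosome and transcript length thus cannot be told apart in these sums. Variant genes on these chromosomes, such as H2afz on chromosome 3, are not in these sums.

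The replication-dependent genes also parted by how far the annotated transcript runs past the stem-loop, a comparison whose limit of 200 bases was chosen after the values were seen and which was not tested. In 13 tested genes the annotation ends within 200 bases of the stem-loop. Their median log2 fold change was 1.36, all 13 were above 0 and 7 were called higher, where 2.57% of all tested genes were called higher. Of the 13 only Hist1h2ao, Hist1h2ag and Hist1h2ae had 10 or more reads in WT. The others needed KO reads to reach the minimum of 10, such as Hist1h2bg with 4 reads in WT and 22 in KO. A gene with few WT reads passes only with enough KO reads, so these counts describe the tested genes only. Untested genes with a short end went both ways, among them Hist1h2ak with 6 and 3 reads and Hist1h2bb with 1 and 6. In 9 tested genes the annotation runs more than 200 bases past the stem-loop. Their median was 0.49, 6 were above 0 and none was called higher. The 2 called lower, Hist2h3c1 and Hist4h4, were among them, where 5.53% of all tested genes were called lower. H2afx, a variant gene whose annotated end also lies past that limit and which was called higher, is not in this group. Summed over all such replication-dependent genes with or without 10 reads, the group with the short end went from 596 to 1500 reads, a ratio of 2.71 (2.46 to 2.98), or from 117 to 280 without Hist1h2ao, 2.57 (2.07 to 3.22). The group with the long end went from 263 to 328 reads, 1.34 (1.14 to 1.58). After the length correction the medians were 1.04 and 0.35. Genes with a short end have short transcripts, so end and length cannot be told apart beyond that correction. Hist2h2be, in which the search found no stem-loop, and Hist1h2bc, whose annotated transcript has 2 exons, were in neither group. The tested replication-dependent genes were also split by a poly(A) signal (AATAAA or ATTAAA) in the annotation's last 50 bases. The 10 with one had a median of 0.66 and the 14 without one 1.19.

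**Figure D4:**
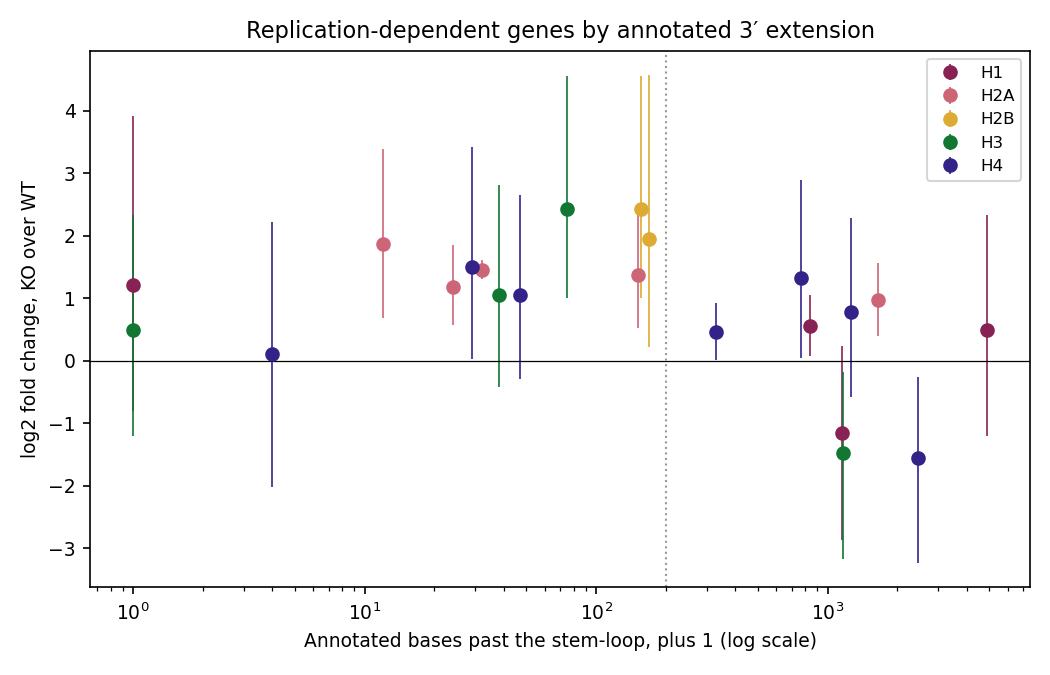
Log2 fold change (KO over WT) with its exact 95% interval for 22 tested replication-dependent genes against the number of annotated bases past the stem-loop plus 1, on a log axis; the dotted line marks 200 bases. All 13 genes on its left lie above 0 and 6 of the 9 on its right. Most of the genes on its left had under 10 reads in WT.

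Genes of the pathway around the histones were counted from lists. Of 29 S phase genes 28 were tested and 25 had a log2 fold change above 0, with a median of 0.38. None was called by the binomial test, and 18 intervals lay above 0 against 1 below. Top2a, the topoisomerase that untangles chromosomes, had 5773 reads in WT and 6781 in KO (0.34), Mki67, a proliferation marker, 4918 and 4513 (−0.02), and Pcna, the sliding clamp of the replication fork, 4086 and 5327 (0.49). The S phase genes thus stood between all genes, at −0.02, and the tested histone genes, at 0.89. After the length correction the gap to the histone genes was smaller. The corrected medians were 0.44 for the S phase genes, 0.67 for the tested histone genes and 0.53 for the variant genes alone. Uhrf1 was not listed in either library.

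Of 29 genes of histone mRNA synthesis and processing 25 were tested, with a median of 0.14. None was called higher and 1 lower, where 2.57% of all genes were called higher and 5.53% lower. Slbp, the stem-loop binding protein, had 1320 reads in WT and 1426 in KO, a log2 fold change of 0.22 (0.11 to 0.33), Ncbp1, of the cap-binding complex, 1222 and 1251 (0.14), and Snrpb, an Sm protein of small nuclear RNPs, 2281 and 2988 (0.49). The gene called lower was Upf1, the helicase that takes part in the decay of histone mRNA, with 40 and 14 reads, −1.38 (−2.40 to −0.50). Npat, the coactivator of histone gene transcription, had 483 and 385 reads (−0.22), and is named in addition to the rule. After the length correction 2 genes of the list were called higher, where 2.47% of all genes were. They were Zfp473, of the U7 processing machinery, with 48 and 74 reads (0.72, corrected 1.18), and Ctif, with 77 and 122 (0.77, corrected 1.07). Ctif is a translation factor that works with the cap-binding complex.

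Of 36 genes of histone chaperones and deposition 35 were tested, with a median of 0.22. In this list 2 were called higher and 1 lower, where 2.57% of all genes were called higher and 5.53% lower. Cenpa, the centromeric H3 variant, whose symbol lies outside the rule for members, had 633 reads in WT and 1313 in KO, a log2 fold change of 1.16, and was called higher with and without the length correction. Nasp, a chaperone of H3 and H4, had 8 and 20 reads (1.37) and was called higher; after the correction its log2 fold change was 1.36 and the adjusted p no longer passed. Ep400, a remodeller that exchanges H2A.Z, had 31 and 8 reads (−1.79) and was called lower. The genes with the most reads, Dek (0.22), Rbbp7 (0.03) and Rbbp4 (0.12), had log2 fold changes near 0.

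The markers of the cells moved as well, and their part in the histone values was not tested. Among the T cell and Th17 markers Il17a went from 2226 to 381 reads (−2.44) and Il17f from 3143 to 345 (−3.08), both called lower, while Cd28 had 8897 and 5191 (−0.67), Cd4 had the counts given above (−0.16) and Cd3e had 4407 and 4778 (0.22). Of the other cell types' markers only 3 had 10 reads over both libraries. Cd79b, of B cells, had 15 reads in WT and 2 in KO (−2.53) and was called lower. Cd79a, also of B cells, had 20 and 8 (−1.17), and Cd8b1, of CD8 T cells, 52 and 27 (−0.83). All 3 were called lower after the length correction.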

How the data were processed

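The RNA-seq data are 1 WT and 1 KO library. The authors deposited raw read counts per gene and library, without normalization; genes without reads are not listed and were given 0. According to the methods of the study SOAP2 was used for mapping to mm10, and the submitters' processing notes name bcl2fastq, HTSeq, Bowtie and SICER 1.1 without a role. The annotation, the strand setting and what became of reads matching more than 1 gene are not given in the sources used here. Reads that fit several near-identical histone genes may have been dropped or assigned to 1 copy, and counts cannot show which. The ChIP-seq part of the series was not analysed here.

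The library totals, 6650066 and 6185108, were used for scaling. Log2 fold changes had 0.5 added to each count, and exact (Clopper-Pearson) 95% intervals came from the unchanged counts and cover counting error only. The two-sided exact binomial test with Benjamini-Hochberg adjustment was run on the 10881 genes with 10 or more reads in all (SciPy 1.17.1). The quasi-likelihood test of edgeR could not be fitted, since 1 library per genotype leaves no residual degrees of freedom. The length correction is a loess curve (statsmodels 0.14.6, span 0.3) on the log2 length of the longest GENCODE M21 transcript, found for 99.1% of tested genes. Positions, stem-loops and promoters come from GRCm38, the assembly behind mm10. The stem-loop was searched for after the stop codon rather than at the annotated transcript end, as first planned, because many annotated transcripts end before it. A promoter entry was found for 49 of 56 members. Protein sequences were not used here. Coding bases and residues were compared over the longest open reading frame found among all annotated transcripts of each gene.

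Members and lists were chosen with earlier results of these data known. Named were all called members, variant members with at least 100 reads, the 2 most-read members of each replication-dependent subclass, members listed in only 1 library with at least 10 reads there (none), Trim28 and, per list, the called genes and the 3 with the most reads; other named genes were chosen after their values were seen. Of the marker genes, 1 is not reported here. Alternatives were TMM and upper-quartile scaling and the exact test of edgeR 4.0.16 at a coefficient of variation set to 0.2 or 0.4, size factors of DESeq2 1.42.0, loess curves on length or GC content, a pseudocount of 5, filters of 1 read in all and of 10 reads in each library, a 1.5-fold limit, and only members with at least 50% of their 50-base windows unique. Calculations were tested on simulated data. R 4.3.3 and Python 3.11.15 were used.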

Additional observations from a re-analysis of the deposited data

How the results depend on the processing

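No paired analysis was possible because each genotype has 1 library, and leaving out a replicate was not possible for the same reason. Of 184 values of the 23 named histone genes under alternatives, 155 had the same sign and the same call, 27 lost the call, 1 gained it (Hist3h2a with the GC curve) and 1 changed sign (Hist2h2be, 0.0005 with the GC curve). The calls rest on counting error: with a coefficient of variation of 0.2 assumed between replicates, 1 histone gene was called higher (Hist1h2ao) and 0 lower, and with 0.4, 0 and 0. Requiring 10 reads in each library left 5 higher and 0 lower. The count of lower calls was 1 under TMM, with the GC curve and among members with at least 50% of their windows unique. The class medians stayed within their order-statistic intervals. The log2 ratio of summed replication-dependent reads, 1.15, was 0.84 with the length curve, 0.73 with unique members only and 0.73 without Hist1h2ao (added after the data were seen); that of variant reads, 0.66, was 0.49 with the length curve, 0.73 with the GC curve and 0.56 without H2afz (also added). For histone mRNA synthesis and processing, 2 were called higher with the length curve and 2 higher and 3 lower at 1.5-fold, and 0 lower at either assumed variation. For chaperones, 1 was called higher with the length curve and under both other filters, 0 lower with 10 reads in each library, 0 and 0 at either assumed variation, and 5 higher and 3 lower at 1.5-fold. For S phase genes, 1 was called higher under TMM and under DESeq2's size factors, and 4 at 1.5-fold, a limit at which 7.02% of all genes were called higher and 11.5% lower. Where no value is given, the cause of a change was not tested.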
